A study of Danio rerio with 24 samples.

Results

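Wild-type zebrafish (Danio rerio) kept in constant darkness and exposed to 25 µM perfluorohexane sulfonate (PFHxS), a persistent fluorinated surfactant, were compared with vehicle-treated fish of the same photoperiod. The comparison took the 4 dark libraries labelled high and the 4 dark vehicle libraries of a series of 24. Of 32520 genes in the tables, 19058 were tested, those with at least 0.5 FPKM (fragments scaled to gene length and sequencing depth) in at least 4 of the 12 dark libraries. All fish were wild type and were sampled whole at 120 hours post fertilisation (hpf), after exposure from 0.75 hpf in water with 0.1% dimethyl sulfoxide. The dark vehicle group received 0 µM PFHxS and the exposed group 25 µM, both with 24 h of darkness per day, and a dark group at 0.0025 µM shared the fit. Groups with the same doses under 14 h of light and 10 h of darkness were used for a comparison of photoperiods at the end. The series title asks whether photoperiod alters the developmental toxicity of PFHxS. Photoperiod was read from the sample titles, since the treatment text speaks of darkness for every sample. The number of larvae in a library, their parents and the hour of collection were not given in the sources used here. The p-values therefore measure only the spread between these libraries, which may be technical.

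A zebrafish larva of this age has nearly used up its yolk and is beginning to hunt, and most of its mass is swimming muscle. Muscle draws on glucose and on fatty acids, and the pyruvate dehydrogenase kinases decide between them by closing the entry of glycolytic carbon into the mitochondrion. Brain, retina, gut and skin still add cells at this stage, which requires DNA replication and mitosis. Cells whose proteins or energy supply are disturbed raise chaperones, the proteasome and autophagy and restrain translation. Perfluoroalkyl acids of this class bind albumin and fatty acid binding proteins, and in rodents they activate the receptor PPAR alpha in the liver.

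The 8 libraries held 8440914 to 14463117 fragments counted over genes. Exposed replicate 2 was the deepest, and the other 7 held at most 9368808. Mitochondrially encoded transcripts took 5.08 to 5.65% of the fragments. Between libraries of 1 group the log2 values correlated at r = 0.946 to 0.958, and those of vehicle and exposed libraries at 0.911 to 0.938. The leading principal component of the 12 dark libraries carried 26.4% of the variance and placed the 4 exposed libraries on one side and the other 8 on the opposite side. Genes of muscle and lens were present, with 102 of 106 sarcomere genes and 44 of 57 lens crystallin genes above the expression minimum. Of all 32520 genes 19058 passed this minimum. These counts cannot tell a whole embryo, as the tissue label has it, from a part that holds both tissues.

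Exposure to 25 µM changed 4147 of the 19058 genes (21.8%) at a limma adjusted p under 0.05, of which 2318 rose (12.2% of genes tested) and 1829 fell (9.6%). The changes were mostly moderate: 570 rises and 407 falls reached a 2-fold difference, and the median size over called genes was 0.62 on the log2 scale. The 4 exposed libraries lay all above or all below the 4 vehicle libraries for 3651 of the called genes. Over all 19058 genes they lay all above for 2568 (13.5%) and all below for 2241 (11.8%). The split between rises and falls depended on how libraries were scaled. With equal total fragments 2130 genes were higher and 2117 lower, and with equal upper quartiles 1930 were higher and 2512 lower, a scaling that moved the median of all genes from −0.011 to −0.077.

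Below, a value in parentheses after a gene name is its log2 fold change, with its SE where one is given (4 libraries per group), and levels are means ± SD over 4 libraries unless 4 values are listed. The pseudocount of 0.1 FPKM understates the change of genes with low values. Genes with few vehicle fragments, such as hspb9, il11a, cyp2k6, lepb and pth1a, met the expression minimum mainly through libraries where they were high. Their fold changes and calls are therefore a description. Genes said to rise or fall passed the adjusted threshold. Counts of list members are to be read against the share called of all genes, 21.8% (12.2% higher and 9.6% lower). The 24 lists with a share near it are named after the last list.

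The 4 exposed libraries differed in how far they moved. Relative to the vehicle mean, the median shift of the 2318 rises was 0.49, 0.68, 0.77 and 0.59 on the log2 scale in exposed replicates 1, 2, 3 and 4, and that of the 1829 falls was −0.40, −0.64, −0.73 and −0.56. Replicate 3 had the highest of the 4 exposed values for 1199 rises (51.7%) and the lowest for 923 falls (50.5%). Replicate 1 was the mildest, with the lowest exposed value for 1203 rises and the highest for 1076 falls. Without replicate 3 the fit called 3148 genes and without replicate 1 it called 4407. Calls also dropped without exposed replicate 2 (3237) or 4 (3598) and without any 1 vehicle library (3333 to 3505).

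**Figure D1:**
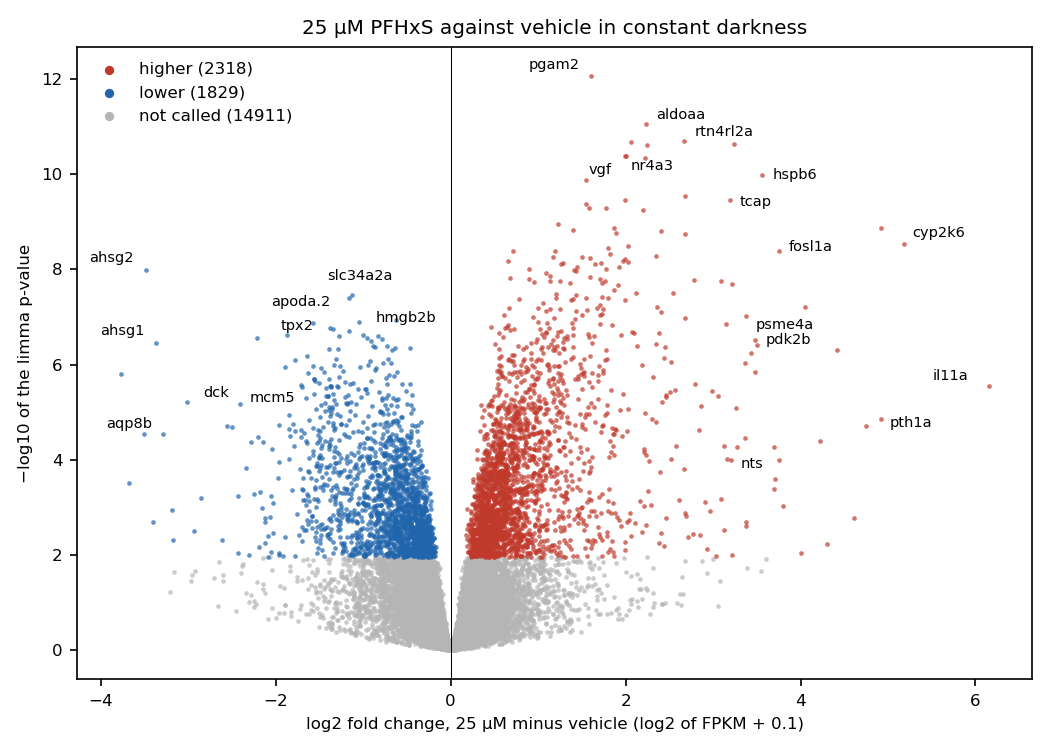
Log2 fold change between 25 µM and vehicle in darkness (horizontal axis, log2 of FPKM + 0.1) against −log10 of the limma p-value (vertical axis) for the 19058 genes tested, with 4 libraries per group. Coloured points are the 2318 rises and 1829 falls at an adjusted p under 0.05. Labelled points are genes described in the text.

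Measured in FPKM, the largest rises included several transcripts of energy metabolism. The glycolytic enzyme gene aldoaa (aldolase, chromosome 3, 39566999 to 39577052, coordinates as the tables give them on a genome build not given in the sources used here) read 382, 338, 342 and 390.2 FPKM in vehicle larvae and 1557, 1623, 1572 and 2115 FPKM at 25 µM. Its log2 fold change was 2.23 ± 0.097 (SE, limma adjusted p = 7.76e-08), and all exposed libraries lay far above all vehicle libraries. The gene slc25a5, which encodes an exchanger of ADP and ATP across the inner mitochondrial membrane, went from 3961 ± 134 to 5832 ± 419.8 FPKM (SD) and was the most abundant of these rises. Further rises were cycsb, which encodes cytochrome c (227 ± 10.3 to 669.6 ± 100.1 FPKM), pck1, the entry enzyme of gluconeogenesis (295 ± 48.5 to 684 ± 58.1), tdh, a threonine dehydrogenase (139 ± 10 to 412 ± 89.2), and ctsla, a lysosomal protease (484 ± 27.7 to 869.7 ± 168). The largest falls by this measure included transcripts of skin, liver and eye. The epidermal keratin gene krtt1c19e read 1236, 1296, 1126 and 1387 FPKM in vehicle larvae and 877, 377, 178 and 473 FPKM at 25 µM, a log2 fold change of −1.62 ± 0.37 with no overlap and with wide spread among the exposed libraries. Further falls were cyt1l, a second keratin (639 ± 97.8 to 243 ± 138), apoa1b, an apolipoprotein of liver and yolk layer (971 ± 38.2 to 719 ± 119.9), tmsb4x, an actin-binding thymosin (1156 ± 86.5 to 884 ± 86.1), opn1sw1, the ultraviolet cone opsin (1311 ± 59.6 to 869.8 ± 159.6), and fetub, a liver-secreted protease inhibitor (487 ± 64.2 to 202 ± 35.1). In RNA of whole larvae, fewer cells of a type and less RNA per cell cannot be told apart, here and in all results below.

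Most glycolysis genes rose. Of 43 tested genes 24 rose and 5 fell, with a median log2 fold change of 0.54 against −0.011 over all genes. Summed over the 45 genes of the list, the level went from 4353 ± 113 FPKM in vehicle larvae to 7412 ± 322 FPKM at 25 µM. The muscle phosphoglycerate mutase gene pgam2 (chromosome 21, 19001669 to 19006641) had the smallest p of all genes. It read 91, 86.7, 86.6 and 91.9 FPKM in vehicle larvae and 251, 277, 261 and 295 FPKM at 25 µM, a log2 fold change of 1.6 ± 0.058 (limma adjusted p = 1.62e-08). Both groups were tight and lay far apart. The muscle phosphofructokinase gene pfkma read 28.7, 28.2, 28.1 and 27.5 FPKM in vehicle larvae and 112, 124, 90.2 and 131 FPKM at 25 µM (2.01 ± 0.099, limma adjusted p = 9.45e-08). Lactate dehydrogenase ldha, which turns pyruvate into lactate, read 172, 145, 147 and 153 FPKM and 345, 359, 339 and 364 FPKM in the same order (1.19 ± 0.085). Every step from glucose entry to lactate held at least 1 rise: hexokinase hk2 (1.0), phosphoglucose isomerase gpib (1.17), triosephosphate isomerase tpi1b (0.77), gapdh (0.64), phosphoglycerate kinase pgk1 (0.90), muscle enolase eno3 (0.59) and pyruvate kinase pkmb (0.59). The 5 falls were glucokinase gck (−1.52), the pyruvate kinase pklr (−0.96), the glucose transporter slc2a2 (−0.59), phosphofructokinase pfklb (−0.29) and enolase eno1b (−0.39). In mammals the counterparts of gck, pklr, slc2a2 and pfklb act in liver, and gck and slc2a2 also in the pancreatic islet. The glycolysis falls numbered 3 without exposed replicate 3 or 4 or vehicle replicate 1, 2 or 4. The call of hk2 was lost without exposed replicate 2, 3 or 4 or vehicle replicate 2, 3 or 4 (limma adjusted p from 0.0552 to 0.117), that of gck without exposed replicate 1, 2 or 4 or vehicle replicate 1, 2 or 4 (limma adjusted p from 0.0505 to 0.0998), that of pfklb without exposed replicate 1 or 3 or vehicle replicate 2, 3 or 4 (limma adjusted p from 0.0504 to 0.0878) and that of eno1b without exposed replicate 3 or 4 or vehicle replicate 1 (limma adjusted p from 0.0573 to 0.0628). The second muscle-type aldolase gene aldoab stood at 0.013 (limma adjusted p = 0.932) while aldoaa rose.

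Several genes that steer the choice between glucose and fatty acids rose. The list of the carnitine shuttle, pyruvate dehydrogenase with its kinases and phosphatases, acetyl-CoA carboxylases and uncoupling proteins had 11 rises and 1 fall of 25. Of its 6 kinase genes 3 rose. The kinase gene pdk2b (chromosome 19, 5674907 to 5687743) read 35.8, 37.3, 35 and 38.5 FPKM in vehicle larvae and 287, 535, 532 and 343 FPKM at 25 µM, with 44.1, 23.5, 49.7 and 114 FPKM in the 4 libraries at 0.0025 µM. The log2 fold change at 25 µM was 3.48 ± 0.36 (limma adjusted p = 3.69e-05), and the vehicle and exposed ranges were far apart. Its paralog pdk2a went from 10.7 ± 1.18 to 26.3 ± 3.49 FPKM (1.28 ± 0.13), and pdk4 rose by 1.29, whereas pdk3a (0.23, limma adjusted p = 0.677) did not pass. The muscle carnitine palmitoyltransferase gene cpt1b read 7.51, 6.97, 6.93 and 9.43 FPKM and then 22.3, 27, 25.2 and 26.3 FPKM (1.7 ± 0.14). The uncoupling protein genes ucp1 (1.31), ucp2 (1.42) and ucp3 (1.58) rose. The genes pdha1a (0.82) and pdhb (0.41), which encode subunits of pyruvate dehydrogenase itself, also rose. Outside the lists, nmrk2, a nicotinamide riboside kinase of muscle that feeds NAD synthesis, went from 19.9 ± 1.41 to 83.4 ± 4.21 FPKM (2.06 ± 0.096), and prelid3b, a mitochondrial phospholipid transfer gene, from 74.7 ± 6.32 to 299 ± 43.8 FPKM (1.99 ± 0.098).

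Of 35 tested genes of fatty acid oxidation 9 rose and 4 fell. The rises included acadvl, which opens the oxidation of long chains (60.3 ± 3.08 to 139 ± 23.4 FPKM, 1.19 ± 0.11), hadhaa (0.96 ± 0.12), hadhb (0.57 ± 0.066) and the electron carrier gene etfa (0.56 ± 0.067). The falls included the peroxisomal enzyme genes ehhadh (−0.87 ± 0.13) and acaa1 (−0.64 ± 0.18), with acad11 (−0.90 ± 0.17) and the mitochondrial decr1 (−0.37 ± 0.11). The call of acaa1 was lost without exposed replicate 3 or 4 or vehicle replicate 1 or 2 (limma adjusted p from 0.0556 to 0.0706) and that of decr1 without exposed replicate 2, 3 or 4 or vehicle replicate 1, 2 or 4 (limma adjusted p from 0.051 to 0.094). The lists did not set the targets of PPAR alpha apart, and the activity of this receptor was not tested. Among 46 genes of lipid uptake, storage and lipolysis 18 rose and 5 fell. The lipase gene lipg read 7.03, 6.57, 7.32 and 6.11 FPKM in vehicle larvae and 23.9, 31.8, 29 and 24.3 FPKM at 25 µM, a separated rise of 1.99 ± 0.12 (limma adjusted p = 4.75e-07). The lipid droplet genes cidec (2.03) and g0s2 (1.85) and the triglyceride lipase gene pnpla2 (1.5) rose, whereas the fatty acid transporter gene cd36 went from 99.8 ± 4.86 to 51.8 ± 7.66 FPKM (−0.96 ± 0.098). Of 22 genes of PPAR receptors and their partners 5 rose and 1 fell, with pparda at 0.94 ± 0.19.

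Many transcripts of the respiratory machinery rose, by small amounts. The tricarboxylic acid cycle had 17 rises and no fall among 26 genes, with citrate synthase cs at 119.8, 118, 124 and 125 FPKM in vehicle larvae and 187, 195, 208 and 209 FPKM at 25 µM (0.71 ± 0.051). Nuclear genes of complexes II and III had 14 rises of 17 and a median of 0.59, complex I 13 of 32 and 0.27, and the ATP synthase 8 of 19 and 0.16, with no fall in any of them. With upper quartile scaling the ATP synthase rises numbered 5. The summed ATP synthase level was 5460 ± 169 FPKM in vehicle larvae, 5928 ± 313 FPKM at 0.0025 µM and 6121 ± 153 FPKM at 25 µM. Complex IV had 6 rises and 2 falls of 18, the falls being cox4i1l (−0.95) and cox8b (−0.53), whose call was lost without exposed replicate 2, 3 or 4 or vehicle replicate 1, 2, 3 or 4 (limma adjusted p from 0.053 to 0.128). The complex III subunit gene uqcrc2b read 96.2, 91.9, 97.1 and 98 FPKM in vehicle larvae and 148, 155, 152 and 159.8 FPKM at 25 µM, without overlap (0.68 ± 0.054). Genes of the mitochondrial ribosome had 23 rises and no fall of 69, including mrpl41 (0.75 ± 0.11) and mrpl35 (0.61 ± 0.10). The 13 transcripts of the mitochondrial genome did not share this: none rose, 2 fell (0 with no expression filter), and their summed level was 52206 ± 3064 FPKM in vehicle larvae and 52320.3 ± 1139 FPKM at 25 µM.

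**Figure D2:**
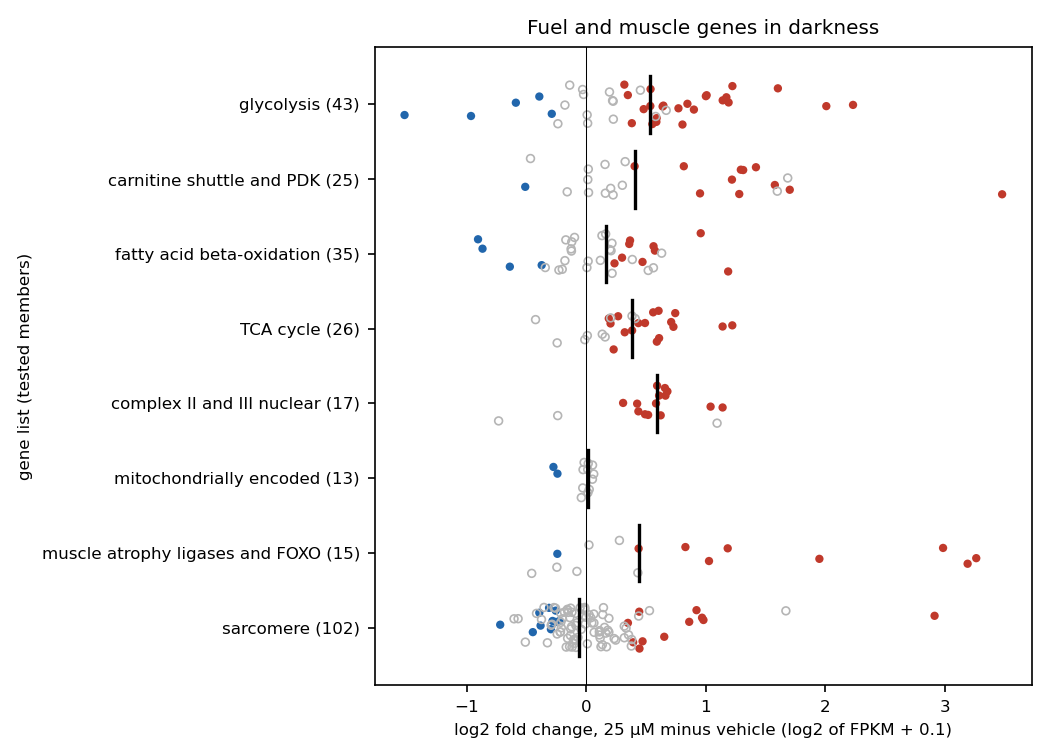
Log2 fold change of every tested member of 8 fuel and muscle gene lists at 25 µM against vehicle in darkness. Each point is a gene, filled where its limma adjusted p was under 0.05, and the bar is the median of the list. Complexes II and III had a median of 0.59 and the mitochondrially encoded genes 0.013.

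Several genes of muscle protein breakdown rose, and the share of sarcomere genes called (20.6%) was close to the 21.8% of all genes. Of 15 genes of the list of atrophy ligases and FOXO factors 8 rose and 1 fell. The ubiquitin ligase gene fbxo32 (atrogin-1), which marks wasting muscle in mammals, rose by 3.26 ± 0.46 on the log2 scale, from 10.4 ± 1.49 to 109.7 ± 50.7 FPKM. The ligase gene trim63a (MuRF1) read 0.362, 0.537, 0.506 and 0.571 FPKM in vehicle larvae and 3.29, 2.61, 6.56 and 7.56 FPKM at 25 µM (2.98 ± 0.39), and the related trim55b went from 6.72 ± 1.4 to 26.4 ± 6.04 FPKM. The gene tcap (chromosome 3, 21240594 to 21242460), which encodes the titin cap of the sarcomere, read 27.1, 19.6, 17 and 17.5 FPKM in vehicle larvae and 142, 191, 235 and 174 FPKM at 25 µM (3.19 ± 0.19, limma adjusted p = 4.75e-07). All 4 exposed values of these genes lay above the vehicle range. The transcription factor gene foxo1a rose (1.03) and foxo3a fell (−0.24), a call lost without exposed replicate 3 or 4 or vehicle replicate 1, 2 or 4 (limma adjusted p from 0.0616 to 0.099). Among 102 sarcomere genes 11 rose and 10 fell, and their summed level was 37397 ± 602 FPKM in vehicle larvae and 35903 ± 2275 FPKM at 25 µM. Rises in this list included ckmt2b (0.97 ± 0.14), which encodes a mitochondrial creatine kinase rather than a sarcomere protein, and the troponin tnnt2b (0.98 ± 0.15). Falls included the fast troponin tnni2a.3 (−0.72 ± 0.18). The sarcomere falls numbered 2 to 5 without exposed replicate 2, 3 or 4 or vehicle replicate 1, 2, 3 or 4 and 17 with upper quartile scaling.

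The proteasome, which degrades ubiquitin-tagged proteins, rose across its parts. Of 50 tested genes 32 rose and 1 fell. Their summed level was 1738, 1691, 1777 and 1688 FPKM in the vehicle libraries and 2192, 2418, 3146 and 2477 FPKM in the exposed ones. The libraries at 0.0025 µM lay between these groups, with 1911, 2004, 1802 and 2137 FPKM, a difference from vehicle that was not tested. Rises numbered 6 of 8 for the alpha subunits of the core, 6 of 11 for the beta subunits, 5 of 7 for the ATPases of the cap and 13 of 16 for its other subunits, with medians of 0.44, 0.43, 0.58 and 0.62. The only fall was psmb8a (1.01 ± 0.616 to 0.139 ± 0.0869 FPKM), a subunit of the interferon-induced immunoproteasome, and its call was lost without exposed replicate 2 or 3 or vehicle replicate 1 or 3 (limma adjusted p from 0.0603 to 0.0738), with a pseudocount of 1 FPKM and in limma-voom (adjusted p = 0.0753 and 0.0531). The cap genes psmd12 (0.68 ± 0.093), psmd8 (0.69 ± 0.092) and psmd11b (0.95 ± 0.13) rose by less than 2-fold. The activator gene psme4a (chromosome 13, 35689749 to 35744963), whose mammalian counterpart opens the core without ubiquitin, stood apart from these sizes. It read 3.16, 4.05, 4.11 and 3.55 FPKM in vehicle larvae and 20.2, 42.7, 61 and 44.8 FPKM at 25 µM, a log2 fold change of 3.37 ± 0.31 (limma adjusted p = 1.82e-05), while its paralog psme4b rose by 0.56.

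Autophagy and lysosome genes had 19 rises and no fall of 36. The cargo receptor gene sqstm1 (p62) read 19.3, 16.1, 17.5 and 15.8 FPKM in vehicle larvae and 56, 106, 201 and 78.6 FPKM at 25 µM, highest in exposed replicate 3 and lowest in replicate 1 (2.52 ± 0.29). The lysosomal protease gene ctsd read 31.1, 36.2, 31.3 and 34.1 FPKM and 59.8, 74.1, 77 and 73.5 FPKM in the same order (1.09 ± 0.086, limma adjusted p = 4.43e-06), a tight rise. The membrane genes lamp1a (1.0) and lamp2 (0.53), the initiating kinase ulk2 (0.84) and the autophagosome genes map1lc3a (0.74) and gabarapb (0.61) also rose. Their regulator tfeb stood at 0.16 (limma adjusted p = 0.449).

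Several heat shock genes rose. The HSP70, HSP90 and HSP110 list had 10 rises and 1 fall of 20. The inducible gene hsp90aa1.1 read 25.1, 30.7, 25.2 and 22.2 FPKM in vehicle larvae and 69.5, 89.9, 98.2 and 98.3 FPKM at 25 µM (1.78 ± 0.14), while the constitutive hsp90ab1 stood at −0.057 (limma adjusted p = 0.46) and hspa8 at 0.18 (limma adjusted p = 0.538). The inducible hsp70.1 read 1.01, 1.72, 1.77 and 1.32 FPKM in vehicle larvae and 9.96, 28.7, 86.5 and 5.87 FPKM at 25 µM, higher throughout and with a range among the exposed libraries that was led by replicate 3 (3.69 ± 0.62). The hsp70 genes are near-identical copies, so fragments may have been divided among them in counting. A further stress gene, hspb9, had 1, 2, 2 and 2 fragments in the vehicle libraries and 34, 64, 46 and 40 in the exposed ones (4.05 ± 0.36, or 2.39 with a pseudocount of 1 FPKM). Small heat shock proteins, which hold unfolding proteins, had 7 rises of 9. Of these hspb6, a small heat shock protein of heart and muscle, read 10.1, 8.75, 8.89 and 8.93 FPKM in vehicle larvae and 73.8, 128, 134 and 111 FPKM at 25 µM (3.56 ± 0.19, limma adjusted p = 1.98e-07). The muscle gene hspb11 went from 14.9 ± 1.47 to 97.5 ± 25.3 FPKM (2.67 ± 0.18). The co-chaperone bag3, which works with small heat shock proteins in muscle, went from 8.31 ± 0.977 to 20.7 ± 6.55 FPKM (1.27 ± 0.18). Of 48 DNAJ co-chaperone genes 11 rose and 1 fell, with dnajb2 at 1.78 ± 0.20, and the rises numbered 7 without exposed replicate 2 or 3 or vehicle replicate 2. The 8 subunits of the TRiC chaperonin, which folds actin and tubulin, held no call in limma, 0 at an unadjusted p under 0.05 and 0 in limma-voom on recovered fragments, with cct4 at 0.068 and cct5 at 0.12 (limma adjusted p = 0.462 and 0.278).

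Part of the genes of stress signalling from the endoplasmic reticulum and from amino acid supply rose. Of 33 endoplasmic reticulum genes 12 rose and none fell. The chaperone hspa5 (BiP) read 196, 143, 161 and 176 FPKM in vehicle larvae and 252, 310.2, 447 and 277 FPKM at 25 µM (0.90 ± 0.15), and the co-chaperone dnajb9b went from 1.95 ± 0.782 to 11.9 ± 4.71 FPKM (2.57 ± 0.33). The chaperone hsp90b1 of the same compartment stood at 0.0045 (limma adjusted p = 0.982). The integrated stress response list had 17 rises and no fall of 29, with the transcription factor ddit3 (CHOP) at 32.8, 25.2, 28.5 and 27.7 FPKM in vehicle larvae and 61.8, 89.1, 80 and 68.8 FPKM at 25 µM (1.38 ± 0.12). Its upstream factor atf4a rose by 0.60 and the phosphatase subunit ppp1r15a, which ends the response, by 1.21. Cytosolic tRNA synthetase genes had 15 rises of 18 and no fall, with farsb at 0.36, eprs at 0.77 and nars at 0.82. In the gluconeogenesis and amino acid list, with 21 rises and 3 falls of 39, the arginase gene arg2 read 33.5, 28.7, 25.5 and 28.3 FPKM in vehicle larvae and 109, 155, 197 and 167 FPKM at 25 µM (2.41 ± 0.16, limma adjusted p = 1.3e-06). The ornithine aminotransferase oat (1.71 ± 0.15), the glutaminase gls2a (1.74 ± 0.26) and the tyrosine aminotransferase tat (1.52 ± 0.28) rose as well.

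**Figure D3:**
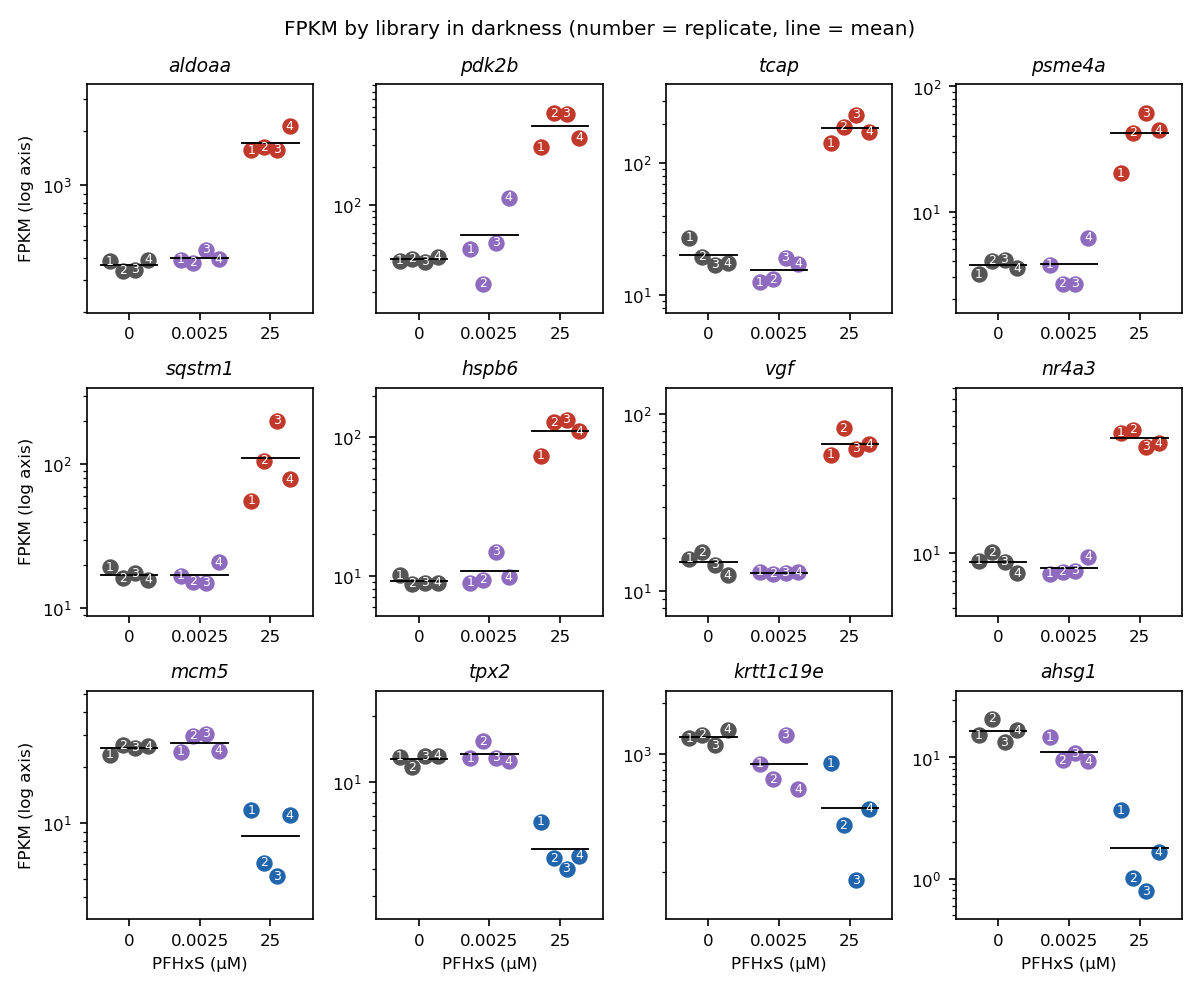
FPKM of 12 genes in each of the 12 dark libraries on a log axis (4 per group, vehicle, 0.0025 µM and 25 µM; the number inside a point is the replicate). The upper 8 genes rose at 25 µM and the lower 4 fell. Exposed replicate 3 lies farthest from the vehicle libraries for sqstm1 and exposed replicate 1 nearest for mcm5.

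Neuropeptide genes were among the lists with the highest share of rises. Of 43 tested neuropeptide and secretogranin genes 30 rose and none fell, with a median of 1.36. The granule gene vgf (chromosome 7, 26224211 to 26230166) read 15.2, 16.6, 14.1 and 12.3 FPKM in vehicle larvae and 59, 83.2, 63.7 and 67.6 FPKM at 25 µM (2.22 ± 0.11, limma adjusted p = 9.45e-08). The granule gene scg2b read 71.8, 70.8, 68.6 and 73.4 FPKM and 219, 396, 331 and 250.1 FPKM in the same order (2.03 ± 0.14), and adcyap1b, which encodes the peptide PACAP, went from 29.6 ± 0.813 to 81.4 ± 18.4 FPKM (1.43 ± 0.12). Rises covered peptides of arousal, appetite, pain and fluid balance: neurotensin nts (3.2), neuromedin nmu (2.58), vasopressin avp (2.23), dynorphin pdyn (2.22), neuropeptide Y npy (1.45) and the cholecystokinin gene ccka (1.31). The broadly expressed granule genes chga (−0.14) and scg3 (−0.0021) did not pass (limma adjusted p = 0.27 and 0.996). By contrast 6 of 100 nerve and muscle channel genes rose and 4 fell, 1 of 42 glutamate and GABA receptor genes rose and 4 fell, and 3 of 39 synaptic genes rose and 5 fell. The shares called of channels (10%) and receptors (11.9%) were under the 21.8% of all genes. That of synaptic genes (20.5%) was close to it. The GABA-synthesising enzyme gene gad2 rose (0.72 ± 0.086), and the pan-neuronal gene elavl3 went from 45.9 ± 1.82 to 36 ± 1.43 FPKM (−0.35 ± 0.082). The channel rises numbered 2 to 3 without vehicle replicate 2 or 4, and the channel falls 7 with upper quartile scaling. The receptor falls numbered 1 to 7 without exposed replicate 2, 3 or 4 or vehicle replicate 1, 2, 3 or 4, 7 with equal total fragments and 9 with upper quartile scaling, and the synaptic falls 3 without vehicle replicate 1, 2 or 4.

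Immediate early genes, whose transcripts accumulate soon after a cell is stimulated, rose broadly. Of 16 AP-1 and related genes 12 rose and none fell, with a median of 1.98. The gene fosl1a read 1.65, 1.48, 1.34 and 0.784 FPKM in vehicle larvae and 15.1, 19.9, 30.3 and 12.4 FPKM at 25 µM (3.75 ± 0.27). The gene junbb read 57.8, 61.5, 53.8 and 33.4 FPKM and 228, 226, 259.7 and 169 FPKM in the same order (2.11 ± 0.18), and atf3, a factor induced by many stresses, went from 8.21 ± 1.53 to 50.3 ± 19 FPKM (2.54 ± 0.22). Of 27 further immediate early genes 18 rose and none fell. The orphan receptor gene nr4a3 (chromosome 16, 27345383 to 27369782) read 9.04, 10.1, 8.96 and 7.75 FPKM in vehicle larvae and 45.7, 47.4, 38.1 and 40.1 FPKM at 25 µM (2.25 ± 0.11, limma adjusted p = 7.76e-08). The neuronal activity gene npas4a read 17.5, 17.4, 15.6 and 8.64 FPKM and 127, 174, 137 and 103 FPKM (3.22 ± 0.26), so that every exposed value was above every vehicle value. The phosphatases that switch off MAP kinases had 5 rises and no fall of 19, with dusp2 at 1.17 ± 0.086. Their share called (26.3%) was close to the 21.8% of all genes. Outside the lists rtn4rl2a, a Nogo receptor-like gene, read 4.92, 4.83, 4.47 and 3.89 FPKM in vehicle larvae and 28.9, 36.4, 25.3 and 27.3 FPKM at 25 µM (2.67 ± 0.12, limma adjusted p = 7.76e-08).

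Hormone genes of stress, calcium and glucose changed, while those of insulin, growth hormone, prolactin and thyrotropin did not pass. The stress axis had 12 rises and no fall of 23. Corticotropin-releasing hormone crhb read 4.97, 4.11, 3.88 and 4.45 FPKM in vehicle larvae and 16.4, 20.4, 19.9 and 13.5 FPKM at 25 µM (1.97 ± 0.15), its binding protein gene crhbp went from 14.1 ± 0.809 to 49.2 ± 11.4 FPKM (1.77 ± 0.14), and the pituitary precursor pomca from 1.37 ± 0.285 to 4.59 ± 2.11 FPKM (1.59 ± 0.31). The steroidogenic enzyme gene cyp11c1 (−0.36) and the receptor nr3c1 (0.17) did not pass (limma adjusted p = 0.296 and 0.698). Among 20 genes of calcium and phosphate control 7 rose and 2 fell. Calcitonin calca read 7.17, 8.21, 7.93 and 7.05 FPKM in vehicle larvae and 30.8, 39.3, 40 and 31.2 FPKM at 25 µM (2.19 ± 0.13, limma adjusted p = 5.96e-07). The enzyme gene cyp24a1, which degrades vitamin D, read 12.2, 7.64, 9.22 and 7.87 FPKM and 85.1, 119, 168 and 68.6 FPKM (3.51 ± 0.37), and cyp27b1, which activates it, fell (−1.54 ± 0.36). The parathyroid hormone gene pth1a had 4, 3, 3 and 0 fragments in the vehicle libraries and 50, 110, 113 and 81 in the exposed ones (4.92 ± 0.72). With a pseudocount of 1 FPKM in place of 0.1 its log2 fold change was 3.25. The phosphate transporter gene slc34a2a read 41.3, 37.7, 40.9 and 38.5 FPKM in vehicle larvae and 20.2, 17.5, 14.8 and 20.7 FPKM at 25 µM (−1.12 ± 0.096).

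The insulin-like growth factor list had 7 rises and 2 falls of 22, and 4 falls with upper quartile scaling. The binding protein gene igfbp1b, which restrains growth factor action in fasting and hypoxia, read 12.6, 21.6, 13.4 and 15.4 FPKM in vehicle larvae and 123, 174, 307 and 120.0 FPKM at 25 µM (3.43 ± 0.37), with all exposed libraries higher. The insulin receptor substrates irs2a (0.98 ± 0.11) and irs2b (1.03 ± 0.11) rose, and igfals, the liver-made stabiliser of the circulating complex, fell (−1.49 ± 0.31). In the pituitary and islet list 4 of 16 rose and none fell. The glucagon gene gcgb (0.99 ± 0.16) and somatostatin sst1.1 (1.06 ± 0.14) rose, while insulin ins (0.085), growth hormone gh1 (−0.13), prolactin prl (−0.14) and the thyrotropin subunit tshba (−0.74) did not pass (limma adjusted p = 0.936, 0.719, 0.717 and 0.438). The thyroid axis had 5 rises and 2 falls of 15, including dio3b (1.24 ± 0.14), an enzyme that inactivates the hormone, and duox (−1.69 ± 0.38), an oxidase of its synthesis, and the rises numbered 3 without exposed replicate 3. Leptin lepb, a hormone of energy state, had 3, 1, 0 and 1 fragments in the vehicle libraries and 12, 37, 37 and 13 in the exposed ones (3.76 ± 0.68, or 1.93 with a pseudocount of 1 FPKM). Of 33 hypoxia-inducible genes 15 rose and 1 fell, with higd1a, a mitochondrial hypoxia gene, at 7.74, 6.82, 6.92 and 5.97 FPKM in vehicle larvae and 18.9, 22, 28.7 and 23.4 FPKM at 25 µM (1.74 ± 0.14). The gene hif1al, a relative of the alpha subunits of hypoxia-inducible factor, went from 59.9 ± 4.7 to 119.8 ± 11.2 FPKM (1.0 ± 0.095).

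The list of the interleukin 6 family and SOCS had 13 rises and no fall of 23. The cytokine gene il11a, whose product drives repair in injured fish tissue, had 0, 4, 0 and 0 fragments in the vehicle libraries and 31, 189, 171 and 40 in the exposed ones. Its log2 fold change of 6.15 ± 0.78 rests on near-absent vehicle values and was 3.52 with a pseudocount of 1 FPKM. Downstream, the transcription factor stat3 (0.86 ± 0.22) and the kinase pim1 (60.6 ± 5.53 to 129.7 ± 21.4 FPKM, 1.09 ± 0.11) rose. Inflammatory mediators had 11 rises and no fall of 26. The factor cebpb read 63.9, 50.1, 53.2 and 42.4 FPKM in vehicle larvae and 158, 136, 205 and 127 FPKM at 25 µM (1.57 ± 0.16), and the protease mmp9 went from 8.09 ± 1.89 to 40.4 ± 8.2 FPKM (2.31 ± 0.28). The cytokine genes il1b (0.75) and tnfb (0.52) did not pass (limma adjusted p = 0.266 and 0.365). Among 26 chemokine genes 5 rose, including the neutrophil attractants cxcl8a (1.72 ± 0.42) and cxcl18b (2.02 ± 0.31), and 2 fell, including the thymic attractant ccl25a (5.7 ± 0.421 to 2.94 ± 0.599 FPKM, −0.95 ± 0.14). The share of chemokine genes called was 26.9%, against 21.8% of all genes, and their median log2 fold change was −0.053. The chemokine rises numbered 3 without exposed replicate 1 or 3 or vehicle replicate 2 and 3 in limma-voom.

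Of 25 immune cell marker genes 1 rose and 5 fell, a share called close to the 21.8% of all genes. The falls were the antigen presentation genes cd74a (−1.21 ± 0.38) and cd74b (−1.96 ± 0.36), the recombination genes rag1 (−0.73 ± 0.22) and rag2 (−1.12 ± 0.29) of developing lymphocytes, and tcf7 (−0.53 ± 0.17). The gene rag1 read 2.59, 2.42, 1.8 and 2.77 FPKM in vehicle larvae and 1.95, 1.14, 1.13 and 1.48 FPKM at 25 µM, with overlapping groups. The falls of the list numbered 2 to 3 without exposed replicate 2 or 3 or vehicle replicate 1, 2, 3 or 4. The call of cd74a was lost without exposed replicate 2 or 3 or vehicle replicate 1, 2 or 3 (limma adjusted p from 0.0549 to 0.105), that of rag1 without exposed replicate 2, 3 or 4 or vehicle replicate 1, 2 or 4 (limma adjusted p from 0.0545 to 0.0939) and that of tcf7 without exposed replicate 1, 2 or 3 or vehicle replicate 2, 3 or 4 (limma adjusted p from 0.0587 to 0.0991). The neutrophil genes mpx (0.33) and lyz (0.56) and the macrophage gene mpeg1.1 (0.81) did not pass (limma adjusted p = 0.424, 0.676 and 0.25). Interferon response genes had 1 rise and 3 falls of 22, the rise being the regulator irf7 (1.04 ± 0.21) and the largest fall psmb8a. The interferon falls numbered 5 with equal total fragments, with upper quartile scaling and with only the groups compared. The granzyme gene gzm3.3 of cytotoxic cells went from 1.7 ± 0.536 to 0.246 ± 0.0513 FPKM (−2.34 ± 0.44).

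Genes of DNA replication and cell division fell at every stage of the cycle. Origin licensing had 12 falls of 15, the replication fork 24 of 27, chromatin assembly 6 of 10, cyclins and cell cycle kinases 21 of 25, the kinetochore 24 of 29, spindle motors and cytokinesis 21 of 24, and cohesin and condensin 11 of 15, with no rise in any of these lists. Without exposed replicate 2 the cohesin and condensin falls numbered 7. The medians ran from −0.99 for the fork to −1.34 for spindle motors and cytokinesis. The summed level of the spindle and cytokinesis genes was 137, 139.8, 139 and 141 FPKM in the vehicle libraries and 77.5, 50.4, 40.8 and 54.4 FPKM in the exposed ones, highest in exposed replicate 1 and lowest in replicate 3. At 0.0025 µM that sum was 149 ± 13.9 FPKM, against 139 ± 1.61 FPKM in vehicle larvae.

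All 7 tested mcm genes, 6 of which form the replicative helicase, were among the falls. The helicase gene mcm5 (chromosome 3, 25999477 to 26011440) read 23.5, 26.3, 25.6 and 26.1 FPKM in vehicle larvae and 11.7, 6.08, 5.14 and 11 FPKM at 25 µM, with every exposed value lower (−1.65 ± 0.22, limma adjusted p = 0.000242). The sliding clamp gene pcna read 133, 119, 126 and 125 FPKM and 76.8, 36.2, 40.4 and 52 FPKM in the same order (−1.35 ± 0.19). The helicase partner cdc45 (−1.37 ± 0.20), the primase-polymerase subunit pola1 (−1.3 ± 0.19) and the single-strand binding protein rpa1 (−0.66 ± 0.098) fell too. Nucleotide supply had 12 falls and 1 rise of 21, the rise being ctps1a (0.50). Thymidylate synthase tyms went from 14.9 ± 1.68 to 5.7 ± 1.92 FPKM (−1.42 ± 0.19), and the deoxycytidine kinase dck read 5.18, 5.38, 5.55 and 3.75 FPKM in vehicle larvae and 2.06, 0.741, 0.68 and 0.468 FPKM at 25 µM (−2.4 ± 0.33). Purine synthesis, which also serves cells that do not divide, held smaller falls, among them paics (−0.80) and gart (−0.55). The maintenance methyltransferase dnmt1 (−1.15 ± 0.14), its guide uhrf1 (−1.33 ± 0.18) and the histone chaperone chaf1b (−1.64 ± 0.18) act behind the fork and fell too. Histone genes had 5 falls and 3 rises of 18, and 8 falls with upper quartile scaling. The most abundant rise was that of the linker histone histh1l (379.6 ± 38.9 to 688 ± 154 FPKM, 0.84 ± 0.18).

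Mitotic genes fell with them. The cyclin ccna2 read 6.47, 6.06, 6.15 and 6.23 FPKM in vehicle larvae and 2.97, 1.54, 1.46 and 1.38 FPKM at 25 µM (−1.78 ± 0.20), and the kinases aurka (−1.37 ± 0.17) and aurkb (−1.58 ± 0.18) fell likewise. The spindle assembly gene tpx2 read 13, 11.6, 13 and 13.1 FPKM and 6.57, 4.46, 4 and 4.59 FPKM in the same order (−1.38 ± 0.14, limma adjusted p = 2.67e-05). The kinetochore genes cenpe (−1.37 ± 0.17) and nuf2 (−1.3 ± 0.16) and the condensin core gene smc4 (−1.23 ± 0.15) fell as well. The nuclear import gene kpna2 read 40.1, 44.3, 46.1 and 42.5 FPKM in vehicle larvae and 22.1, 16.3, 14.3 and 16 FPKM at 25 µM (−1.34 ± 0.13). None of the 9 cyclin-dependent kinase inhibitor genes, which brake the cycle, passed in limma. At an unadjusted p under 0.05 4 were higher and 1 lower, and limma-voom called 1 lower. The stress-induced cdkn1a stood at −0.12 (limma adjusted p = 0.653). Of 31 genes of cell death and the damage response 15 rose and none fell, including the death gene pmaip1 (1.77 ± 0.20) and the survival gene mcl1a (1.18 ± 0.16), whereas the ubiquitin ligase gene mdm2 (0.38) did not pass (limma adjusted p = 0.0987).

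**Figure D4:**
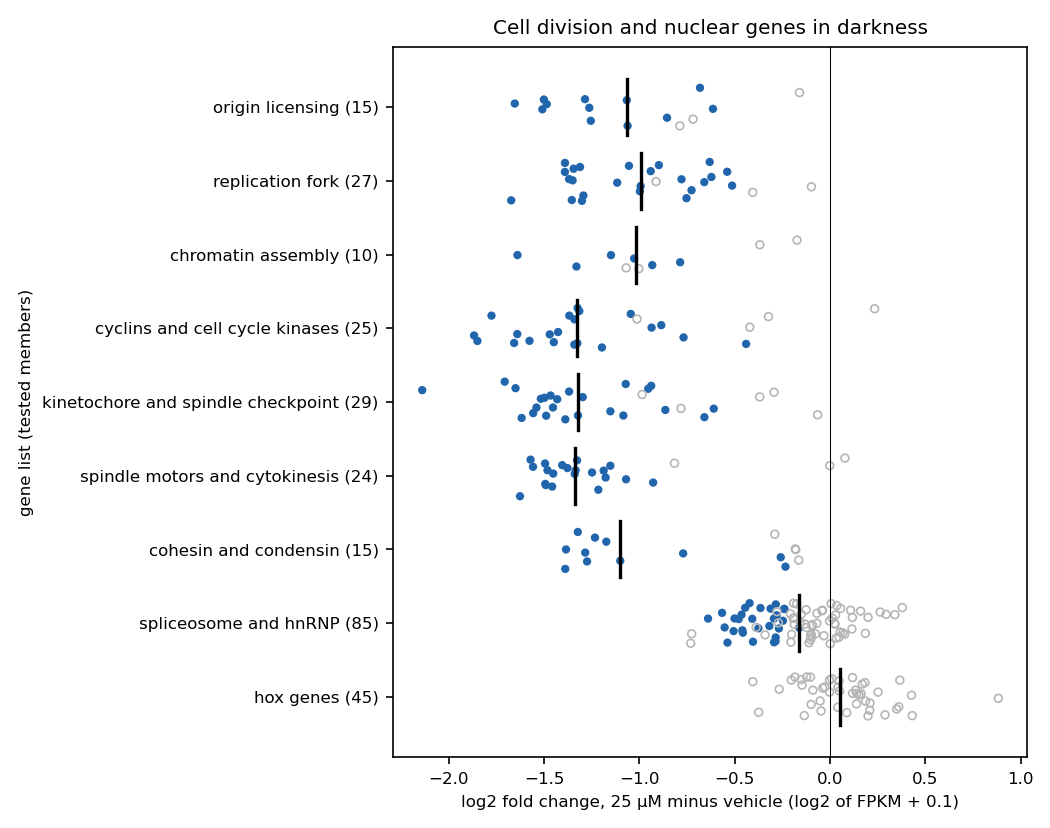
Log2 fold change of every tested member of 9 lists of cell division and nuclear genes at 25 µM against vehicle in darkness. Each point is a gene, filled where its limma adjusted p was under 0.05, and the bar is the median of the list. The 7 lists of replication and division contain falls and no rises that passed, and the hox list contains no call.

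Neural progenitor and Notch genes had 10 falls and no rise of 30. The radial glia gene fabp7a read 221, 203, 174 and 232 FPKM in vehicle larvae and 159, 114, 106 and 134 FPKM at 25 µM (−0.70 ± 0.13). The Notch ligands dla (−0.63 ± 0.12) and dlb (−0.87 ± 0.14) and the retinal progenitor factor atoh7 (−1.52 ± 0.34) fell, and the neural stem cell gene sox2 (0.074) did not pass (limma adjusted p = 0.621). None of the 45 tested hox genes, which hold regional identity along the body, was called in limma, 1 was higher and 1 lower at an unadjusted p under 0.05, limma-voom called 0, and their summed level was 264 ± 8.6 FPKM in vehicle larvae and 273 ± 3.78 FPKM at 25 µM. Myelin genes had 6 falls and 1 rise of 15, with pmp22b at −0.50 ± 0.12 and cnp at −0.40 ± 0.089. The myelin falls numbered 2 to 3 without vehicle replicate 1, 2 or 4.

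Among the 1568 genes that the tables assign to a transcription factor family, 110 rose and 140 fell (15.9% called, against 21.8% of all genes). The bZIP family, which includes AP-1, had 23 rises and 4 falls of 58. The opposite held for the HMG family with 1 rise and 19 falls of 53, the E2F family with 6 falls of 10, and the Pou family with 5 falls of 13. The HMG box gene hmgb2b, a chromatin protein of proliferating cells, read 237, 252, 244 and 248 FPKM in vehicle larvae and 152, 125, 105 and 114 FPKM at 25 µM, with all exposed libraries lower (−1.0 ± 0.10). Of 212 homeobox genes 8 rose and 16 fell (11.3% called), and of 589 C2H2 zinc finger genes 19 rose and 34 fell (9.0%). These shares were under that of all genes. Long intergenic RNAs had 28 rises and 23 falls of 338 (15.1% called), and antisense RNAs 12 and 4 of 114 (14.0%), also under the share of all genes. Whether counting used strand was not given in the sources used here, so an antisense gene and its partner cannot be told apart.

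Spliceosome genes fell in part. Ribosome assembly genes held more rises than falls, with a share called (27.7%) near the 21.8% of all genes. Spliceosome and hnRNP genes had 29 falls and no rise of 85, with a median of −0.16. The splicing factor srsf3b read 80.7, 77.1, 79.2 and 80.4 FPKM in vehicle larvae and 59.6, 57.5, 55.9 and 57.7 FPKM at 25 µM (−0.46 ± 0.049), and hnrnpaba went from 141 ± 4.26 to 102 ± 11.4 FPKM (−0.46 ± 0.076). Ribosome biogenesis had 15 rises and 3 falls of 65, with polr1a, the large subunit of RNA polymerase I, at 0.53 ± 0.11 and the nucleolar gene mybbp1a at 0.55 ± 0.11. The biogenesis rises numbered 8 without exposed replicate 3 or vehicle replicate 2. Cytosolic ribosomal protein genes had 3 rises and 4 falls of 77, a share under the 21.8% of all genes. Small decreases were nonetheless common, with 65 of the 77 below 0 and a median of −0.12. Summed over the list, the level went from 60424 ± 1817 FPKM in vehicle larvae to 55422 ± 2850 FPKM at 25 µM, without overlap. The called falls of this list numbered 0 to 14 without exposed replicate 1, 2, 3 or 4 or vehicle replicate 1, 2, 3 or 4. They numbered 28 with equal total fragments and 33 with upper quartile scaling. Translation initiation had 15 rises and 3 falls of 57, a share called of 31.6% against 21.8% of all genes. The largest rise there was eif4ebp3l, which encodes a repressor of cap-dependent translation (85.8, 70.6, 67.9 and 77.5 FPKM in vehicle larvae and 138, 194, 227 and 124 FPKM at 25 µM, 1.14 ± 0.19).

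Many genes of collagens and keratins, the main structural proteins of skin and skeleton, fell. Of 48 tested collagen genes 27 fell and 1 rose. Their summed level was 2359.7, 2528, 2422 and 2573 FPKM in the vehicle libraries and 2129, 1529.8, 1342 and 1704 FPKM in the exposed ones. The mean of that sum was not lower at 0.0025 µM (2577 ± 112 FPKM, against 2471 ± 97.1 FPKM in vehicle larvae). The falls spanned classes: 3 of 3 genes of fibrillar type I, 2 of 2 of cartilage type II, 3 of 4 of type IX and 2 of 3 of type VI, against 2 of 6 of the basement membrane type IV. The cartilage gene col9a1a read 98.4, 89.2, 96.7 and 96.6 FPKM in vehicle larvae and 76.3, 57.1, 56.2 and 63.6 FPKM at 25 µM (−0.60 ± 0.089), and the anchoring fibril gene col7a1 fell by more (−1.43 ± 0.38). Cartilage and bone matrix genes beyond collagens had 10 falls and 2 rises of 36. The mineralisation gene entpd5a (−1.09 ± 0.20) and the proteoglycan gene lum (−0.83 ± 0.17) fell, and the matrilin gene matn3b read 24.5, 20.4, 19.2 and 23.1 FPKM in vehicle larvae and 48.8, 68, 52.8 and 55.7 FPKM at 25 µM (1.36 ± 0.11). The falls of that list numbered 6 without exposed replicate 3. The TGF beta and activin list had 7 rises and 1 fall of 22, with the thrombospondin thbs1a (1.5 ± 0.11), the matricellular genes ccn1 (1.0 ± 0.11) and ccn2a (1.29 ± 0.17) and the activin subunit inhbab (1.48 ± 0.25) higher. Matrix proteases and inhibitors had 7 rises and 6 falls of 44, including the protease adamts1 (1.39 ± 0.13) and the inhibitor timp2b (1.61 ± 0.29), and their falls numbered 3 without exposed replicate 2 or 3 or vehicle replicate 2 or 3.

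Keratin genes had 11 falls and 1 rise of 23, with a summed level of 8298, 8021, 7104 and 9268 FPKM in the vehicle libraries and 6909.7, 3698, 3135 and 4241 FPKM in the exposed ones. The libraries at 25 µM were lower than vehicle throughout and spread widely. Keratin sums at 0.0025 µM were 6068, 5341, 7498 and 6071 FPKM, a range that includes replicate 1 at 25 µM. Their mean was 6244 ± 903 FPKM, against 8173 ± 891 FPKM in vehicle larvae. The sums of these 2 groups overlapped, and their difference was not tested. The larval epidermal genes icn (−0.64 ± 0.14) and icn2 (−1.34 ± 0.26) and krt1-19d (−0.62 ± 0.13) fell, and krt18a.1, a keratin of simple epithelia, rose (0.87 ± 0.22). Desmosome and envelope genes had 6 falls and no rise of 26, including ppl (61.6 ± 5.83 to 37 ± 6.49 FPKM, −0.74 ± 0.13). The keratin falls numbered 7 without vehicle replicate 4. Annexins had 1 rise and 4 falls of 16, and those falls numbered 2 without vehicle replicate 1, 3 or 4. Claudins, which seal epithelia, had 2 rises and 2 falls of 28, a share called (14.3%) under the 21.8% of all genes. Genes of ionocytes, the salt- and acid-transporting cells of larval skin, went the other way with 11 rises and no fall of 31. The ammonium channel gene rhcgb read 14.8, 12.6, 8.1 and 13.1 FPKM in vehicle larvae and 37.4, 47.9, 39.7 and 35.9 FPKM at 25 µM (1.74 ± 0.16), and the sodium pump subunit atp1b1b went from 85.1 ± 5.74 to 158 ± 31 FPKM (0.87 ± 0.11).

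Many liver-secreted protein genes fell. Of 27 genes 13 fell and 3 rose, with a summed level of 5229 ± 159.9 FPKM in vehicle larvae and 3999 ± 457 FPKM at 25 µM. The fetuin gene ahsg1 (chromosome 22, 37874691 to 37881714), which encodes a serum carrier of calcium phosphate, read 15.2, 20.8, 13.4 and 16.8 FPKM in vehicle larvae and 3.66, 1, 0.79 and 1.66 FPKM at 25 µM (−3.36 ± 0.35). Its neighbour in name ahsg2 read 3.33, 6.73, 3.1 and 4.37 FPKM and 0.234, 0.234, 0.22 and 0.496 FPKM in the same order (−3.48 ± 0.27, limma adjusted p = 3.94e-06). Angiotensinogen agt rose from 55.9 ± 7.91 to 107 ± 19.4 FPKM (0.93 ± 0.13). Coagulation genes had 6 rises and 3 falls of 16: fibrinogen fga (0.66 ± 0.11) and fgb (0.60 ± 0.13) rose together with tissue factor f3b (1.48 ± 0.17), whereas f7i (−1.22 ± 0.26) fell. Complement genes had 6 falls and 1 rise of 29, the falls including c8b (−0.73) and c8g (−0.59) of the lytic pore, and the falls numbered 3 without exposed replicate 3 or 4 or vehicle replicate 1. The iron hormone hamp, made by the liver in inflammation, read 1.47, 0.517, 2.44 and 1.28 FPKM in vehicle larvae and 12.6, 17.1, 19.1 and 12.5 FPKM at 25 µM (3.48 ± 0.41), and hjv, which promotes its expression in mammals, rose (0.70 ± 0.11). The iron and haem list as a whole had 6 rises and 1 fall of 29. Apolipoprotein genes had 2 rises and 5 falls of 19. Among them apoeb rose from 389 ± 29.5 to 633 ± 61.7 FPKM (0.70 ± 0.077), and the lipocalin gene apoda.2 read 133, 158, 126 and 134 FPKM in vehicle larvae and 70.9, 62.6, 51.8 and 60.4 FPKM at 25 µM (−1.17 ± 0.10).

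Among genes of foreign compound metabolism, family 2 cytochrome P450 genes had 2 rises and 7 falls of 36, a share called (25%) close to the 21.8% of all genes. The gene cyp2k6 had 1, 2, 1 and 0 fragments in the vehicle libraries and 90, 187, 72 and 142 in the exposed ones (5.19 ± 0.36, or 2.59 with a pseudocount of 1 FPKM). The related cyp2k18 read 18.5, 17.2, 22.3 and 13.5 FPKM in vehicle larvae and 107, 83.5, 30.2 and 64.9 FPKM at 25 µM (1.87 ± 0.30), while cyp2aa8 read 6.14, 4.36, 4.17 and 6.35 FPKM and 1.84, 0.317, 0.739 and 1 FPKM (−2.5 ± 0.38) and cyp2aa9 went from 4.27 ± 0.504 to 0.941 ± 0.606 FPKM (−2.28 ± 0.38). Conjugation and export genes had 8 rises and 14 falls of 63, with the sulfotransferase sult2st1 (1.12 ± 0.13) and the exporter abcc1 (1.04 ± 0.12) higher and the glutathione transferase gstm.1 lower (43.3 ± 1.98 to 19.4 ± 2.76 FPKM, −1.16 ± 0.12). The share of conjugation rises was close to the 12.2% of all genes. The conjugation rises numbered 5 without exposed replicate 2 or vehicle replicate 3. The xenobiotic receptor nr1i2 (PXR) went from 3.21 ± 0.214 to 7.14 ± 0.777 FPKM (1.12 ± 0.13). Aryl hydrocarbon receptor targets had 3 rises and no fall of 14, and cyp1a stood at 0.012 (limma adjusted p = 0.951). Of 40 oxidative stress genes 15 rose and 4 fell, with gclm at 1.15 ± 0.12 and the endoplasmic reticulum peroxiredoxin prdx4 at −0.68 ± 0.073. The falls of that list numbered 7 without exposed replicate 1.

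Digestive genes fell in part. Intestinal brush border genes had 10 falls and 2 rises of 35, with the peptide transporter slc15a1a at 27.9, 33.6, 31.6 and 30.2 FPKM in vehicle larvae and 18.9, 15.1, 12.7 and 16.7 FPKM at 25 µM (−0.97 ± 0.12). The amino acid transporter slc7a9 fell from 10.6 ± 1.45 to 5.06 ± 0.271 FPKM (−1.04 ± 0.10), and the water channel aqp8b from 2.6 ± 0.725 to 0.21 ± 0.151 FPKM (−3.29 ± 0.52). The pancreatic enzyme list had 9 falls and 2 rises of 25, with elastase ela2 at 195, 261, 235 and 212 FPKM in vehicle larvae and 153, 132, 72.4 and 105 FPKM at 25 µM (−1.01 ± 0.19). The pancreatic falls numbered 4 to 5 without vehicle replicate 2 or 4. The hatching gland protease he1.1, of a larval organ that is lost after hatching, had 47, 3, 10 and 51 fragments in the vehicle libraries and 1, 2, 0 and 0 in the exposed ones (−3.67 ± 0.75), and did not pass in limma-voom (adjusted p = 0.0668).

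Retinal, lens and pigment lists held calls in both directions or few calls. Phototransduction genes had 7 falls and 2 rises of 31, with the cone transducin gene gnat2 at 255 ± 12.3 FPKM in vehicle larvae and 187 ± 28.2 FPKM at 25 µM (−0.46 ± 0.10). The phototransduction falls numbered 4 without vehicle replicate 2 and 12 with upper quartile scaling. Retinoid genes had 3 rises and 2 falls of 23, with the retinol dehydrogenase rdh10b at 1.73 ± 0.16. Lens crystallins had 1 rise and no fall of 44, a share far under the 21.8% of all genes. Pigment cell genes had 3 rises and 4 falls of 31: the pigment cell tetraspanin gene tspan36 read 10.5, 12.5, 16.4 and 5.07 FPKM in vehicle larvae and 35.7, 114, 117 and 62.7 FPKM at 25 µM (2.84 ± 0.44), and pnp4a, a gene of reflective iridophores, went from 6.76 ± 0.742 to 2.61 ± 1.22 FPKM (−1.44 ± 0.24). Clock and output genes had 8 rises and 2 falls of 48, with the light-responsive clock gene per2 at 2.33, 2.06, 2.57 and 1.6 FPKM in vehicle larvae and 3.71, 4.66, 4.4 and 5.23 FPKM at 25 µM (1.05 ± 0.17), and the clock rises numbered 5 without exposed replicate 2 or vehicle replicate 2.

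**Figure D5:**
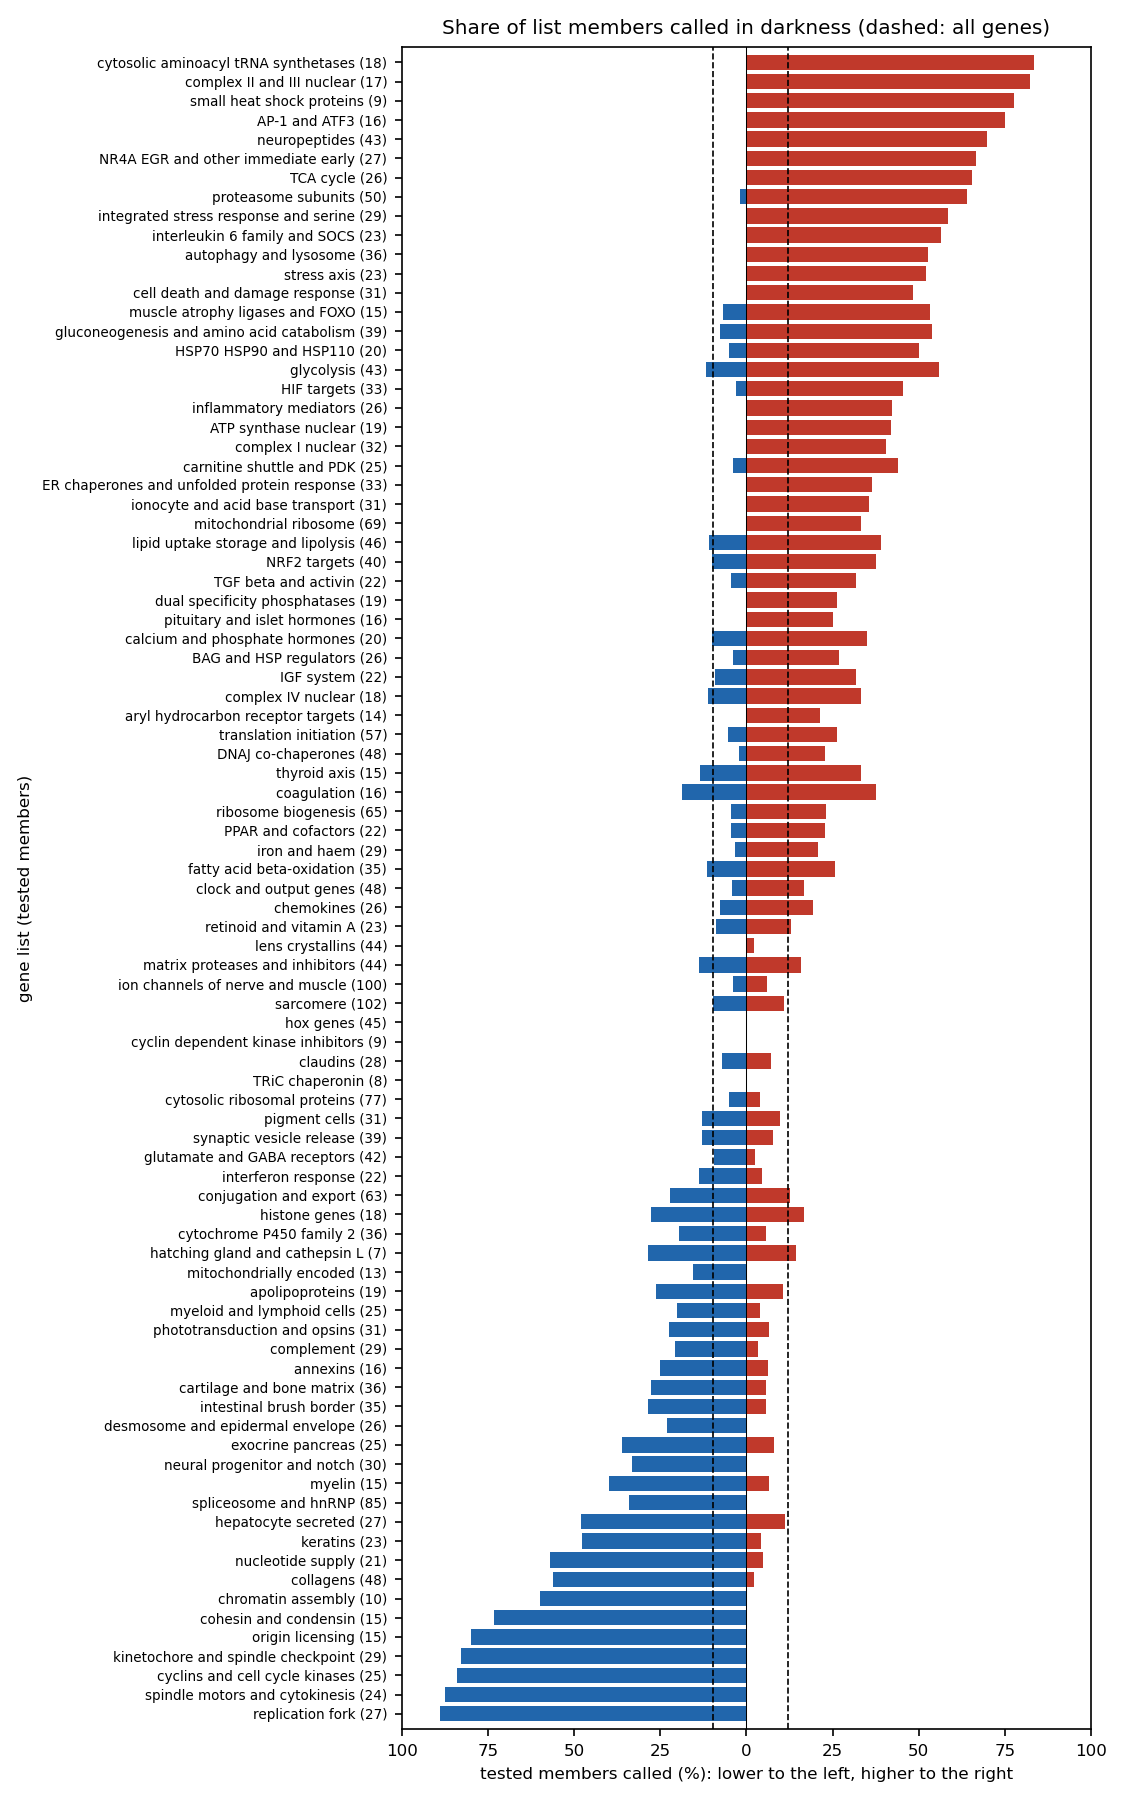
Share of tested members (horizontal axis, percent) that rose or fell at 25 µM against vehicle in darkness in each of 87 gene lists, with the number of tested members after each name. Dashed lines mark the shares over all 19058 genes, 12.2% higher and 9.6% lower. The lists of the replication fork, spindle motors and cyclins reach farthest to the lower side, and those of tRNA synthetases and complexes II and III farthest to the higher side.

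Lists with calls in only 1 direction numbered 33. In 23 of them no member passed an unadjusted p under 0.05 in the other direction, in the rest 1 to 3 did, and limma-voom called 1 member in that direction in 4 lists. In 24 of the 87 lists the share of members called in either direction lay within 1.5 times of the 21.8% of all genes (15.4 to 31.6%). That share does not set them apart from all genes. These were the lists of dual specificity phosphatases, chemokines, DNAJ and BAG co-chaperones, PPAR, mitochondrially encoded genes, pituitary and islet, retinoids, matrix proteases, desmosome, annexins and complement. The others were those of iron and haem, cytochrome P450 family 2, aryl hydrocarbon receptor targets, sarcomere, synaptic vesicle, phototransduction, pigment, clock, ribosome biogenesis, translation initiation, immune cells and interferon response. This measure leaves out direction, for which the shares over all genes were 12.2% higher and 9.6% lower.

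Small counts moved under other settings of filter, pseudocount, scaling or model (the replicate block is given at the end). The falls came to 0 or 1 for the DNAJ, proteasome and atrophy lists, 1 to 2 for the PPAR, complex IV, hypoxia, thyroid and iron lists, 1 to 4 for the growth factor and ribosome biogenesis lists, 2 to 5 for immune cells and 0 to 2 for the clock. Where no fall is given above, up to 1 appeared for the endoplasmic reticulum, integrated stress response, cell death and kinase inhibitor lists, and up to 3 for lens crystallins. The rises came to 1 to 4 for apolipoproteins and the brush border, 1 to 3 for claudins and cartilage matrix, 1 to 2 for pancreas, family 2 cytochromes, phototransduction and lens, and 0 or 1 for receptors and complement. Up to 1 rise appeared for the neural progenitor, desmosome and spliceosome lists. Several calls that were lost with 1 library left out were also lost under other settings. With no expression filter these were cd74a, cox8b, gck, hk2, opn1mw2, rag1 and tcf7, with only the groups compared cd74a, foxo3a, hk2, opn1mw2 and pfklb, with upper quartile scaling hk2 and opn1mw2, and in limma-voom cd74a.

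The genes listed at 0 throughout a group, with at least 0.5 FPKM in each library of the other, had no informative name. They were chosen for this pattern and passed the expression minimum only through the group where they were high, so their values are a description. The gene si_ch73-244f7.3 had 19, 6, 24 and 6 fragments in the vehicle libraries and 0 in each exposed library. In the opposite direction si_dkey-7f3.14 was at 0 fragments in each vehicle library and had 10, 8, 7 and 5 in the exposed ones, and CU855552.1 was at 0 and had 1, 2, 1 and 1.

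The response in darkness was set against that of larvae given the same dose under the light-dark cycle, which had vehicle controls of their own. The difference of the 2 effects was tested on all 24 libraries, and 239 of the 19058 genes passed (1.25%), 202 with the higher effect in darkness and 37 with the lower. The split depended on scaling: with equal total fragments 123 were higher and 116 lower, and with equal upper quartiles 150 and 86. The number also moved when 1 library was left out, with 127 genes without dark exposed replicate 2, 149 without dark exposed replicate 3, 140 without dark vehicle replicate 2, 146 without dark vehicle replicate 4, and 128, 158 and 159 without cycle exposed replicates 1, 2 and 3. It was 410 without dark exposed replicate 1 and 491 without cycle exposed replicate 4. Dark and cycle libraries belong to separate library series and their tables were scaled separately, so levels set across them are a description, while an offset of a gene between the series cancels in the difference of effects. A difference between the series in the strength of the response does not cancel. Photoperiod and library series therefore cannot be told apart in this comparison.

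The receptor gene nr4a3 went from 8.95 ± 0.945 to 42.8 ± 4.44 FPKM in darkness and from 8.61 ± 1.48 to 10.6 ± 2.15 FPKM under the cycle, a difference of 1.95 ± 0.19 on the log2 scale (limma adjusted p = 1.61e-05). The gene rtn4rl2a differed by 2.21 ± 0.26, with log2 fold changes of 2.67 in darkness and 0.46 under the cycle. For the muscle gene nmrk2 these were 2.06 and 0.59 (difference 1.47 ± 0.19), for trim55a 0.83 and −0.34 (1.17 ± 0.14), and for alpk2, a muscle alpha kinase gene, 1.71 and 0.16 (1.55 ± 0.21). The hormone hamp went from 42.5 ± 20.3 to 30.9 ± 6.69 FPKM under the cycle (−0.36), against the rise of 3.48 in darkness from lower vehicle values (3.84 ± 0.54, limma adjusted p = 0.000829). The deiodinase gene dio3b rose by 1.24 in darkness against −0.73 under the cycle (1.97 ± 0.27). The green cone opsin opn1mw2 had 8.81, 4.28, 5.09 and 2.8 FPKM in dark vehicle larvae and 11.6, 10, 9.48 and 6.28 FPKM at 25 µM in darkness, with overlap and a dark call lost without exposed replicate 1, 2 or 3 or vehicle replicate 2, 3 or 4 (limma adjusted p from 0.072 to 0.115), against 25 ± 4.11 and 7.49 ± 1.66 FPKM under the cycle (2.64 ± 0.35). Genes with the lower effect in darkness included apoda.2 (−1.17 against −0.22), the Wnt antagonist sfrp1a (−0.78 against 0.20), the synaptic adhesion gene lrrc4.2 (−0.56 against 0.28), comta, which inactivates catecholamines (−0.73 against 0.051), trim47 (−0.50 against 0.16) and the splicing regulator rbfox1 (−0.33 against 0.052).

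Lists differed in how many members passed in this comparison, in which 1.25% of all genes passed. It called 8 of 16 AP-1 genes, 8 of 43 neuropeptides, 6 of 27 further immediate early genes, 5 of 43 glycolysis genes and 3 of 15 atrophy genes. It called 0 in limma of 15 origin licensing, 27 replication fork, 29 kinetochore, 24 spindle, 48 collagen and 17 complex II and III genes. At an unadjusted p under 0.05 these lists held 1, 6, 1, 1, 6 and 4 genes, and limma-voom called 1 collagen gene and none of the others. Among further division lists, chromatin assembly, cyclins, and cohesin and condensin also held 0 calls in limma. At an unadjusted p under 0.05 they held 6 of 10, 5 of 25 and 0 of 15 genes. Nucleotide supply held 1 call of 21. With 1.25% of all genes called, a list of these sizes can hold no call without differing from all genes. A gene that did not pass is not thereby shown to respond alike in both photoperiods.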

How the data were processed

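RNA of whole larvae was sequenced in 24 libraries. Per the submitters' processing notes, HISAT2 2.0.5 and featureCounts 1.5.0-p3 were used. The genome build and annotation were not given in the sources used here. The authors deposited 1 FPKM table for the dark and 1 for the cycle libraries, and no library was identical to another. Multiplied by gene length and divided by a unit found for each library, 100% of values came out whole (tolerance 0.01 fragments), and these recovered fragments served for depth and for 1 alternative.

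The values log2(FPKM + 0.1) were tested in limma 3.58.1 under R 4.3.3 with an intensity trend, 1 mean per group, and Benjamini-Hochberg adjustment over all 19058 genes at 0.05. The dark comparison was fitted on the 12 dark libraries and the difference between photoperiods on all 24. The code was tested on simulated data.

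Named genes were those with the largest changes in FPKM, p or log2 fold, and the strongest members of each list. Further members were named for their role after their values were seen. The 87 lists (3173 members, 98 symbols not matched) and the comparison were chosen with earlier results of these data known. Members that a symbol prefix caught wrongly were taken out of a list after the data were seen. They were kinases, regulators and unrelated genes among the sarcomere, ribosomal protein, complement, complex IV, collagen, proteasome and keratin lists. The removal was not complete, since the creatine kinase gene ckmt2b stayed in the sarcomere list. Alternatives changed the pseudocount, expression filter, scaling, model, moderation, replicate block, fold minimum and libraries. In 12 gene rows a symbol had been turned into a date, and those names were not used. Values of 2 list members are not reported here.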

Additional observations from a re-analysis of the deposited data

Results flagged for a closer look

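In 34 of 548 groups of 4 libraries, formed by each gene named above in the dark vehicle and the dark 25 µM larvae, 1 library stood far from the other 3. Its gap to the nearest of them was over 0.829 of the range of the group, a limit that chance passes in about 1 of 20 groups. No library held more than 8 of the 34 values. Among the exposed libraries, values far above the other 3 were those of ccna2 (2.97 FPKM), icn (584 FPKM), igfals (0.49 FPKM), prdx4 (37.8 FPKM), slc2a2 (15.5 FPKM) and smc4 (5.82 FPKM) in replicate 1. In the same direction stood alpk2 (32.2 FPKM) in replicate 3. In the same direction stood ahsg2 (0.496 FPKM) and aldoaa (2115 FPKM) in replicate 4. Exposed values far below the other 3 were those of ins (0.43 FPKM) in replicate 2. Likewise low stood cd74a (0.344 FPKM) in replicate 3. Likewise low stood cxcl8a (4.71 FPKM), lrrc4.2 (5.61 FPKM) and nr3c1 (1 FPKM) in replicate 4. Among the vehicle libraries, values far above the other 3 were those of cycsb (242 FPKM) and hspb6 (10.1 FPKM) in replicate 1. Likewise high stood il11a (0.705 FPKM), nuf2 (8.46 FPKM), psme4b (8.31 FPKM) and slc7a9 (12.8 FPKM) in replicate 2. Likewise high stood atf3 (10.5 FPKM) and comta (26 FPKM) in replicate 3. Likewise high stood aqp8b (3.69 FPKM) and slc2a2 (24.1 FPKM) in replicate 4. Vehicle values far below the other 3 were those of hspb9 (0.137 FPKM) and pparda (1.27 FPKM) in replicate 1. Low in turn stood cox4i1l (9.23 FPKM), sox2 (31.5 FPKM), tfeb (3.45 FPKM) and tpx2 (11.6 FPKM) in replicate 2. Low in turn stood f7i (11.3 FPKM), inhbab (0.552 FPKM), npas4a (8.64 FPKM) and pth1a (0 FPKM) in replicate 4.

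The effect of 25 µM differed between darkness and the light-dark cycle for 57 of the genes named above, by the test of the difference itself in limma (adjusted p from 1.61e-05 to 0.0464). The values are the log2 effect in darkness minus that under the cycle, in which photoperiod and library series cannot be told apart. Genes of muscle and energy supply with the higher effect in darkness were aldoaa (0.93), pgam2 (0.76), pfkma (0.88), eno3 (0.37), ldha (0.48), slc25a5 (0.41), cycsb (0.83), cpt1b (1.05), ucp2 (1.12), nmrk2 (1.47) and prelid3b (1.41). Muscle structure, ligase and chaperone genes of that direction were alpk2 (1.55), tnnt2b (1.17), trim55a (1.17), trim55b (1.4), trim63a (2.82), hspb6 (1.39) and hspb11 (1.46). Neuropeptide and stress axis genes were adcyap1b (1.0), avp (2.32), calca (1.3), crhb (1.1), crhbp (1.0), scg2b (1.27) and vgf (1.35). Immediate early and related regulators were fosl1a (3.12), junbb (2.06), npas4a (2.03), nr4a3 (1.95), rtn4rl2a (2.21) and pim1 (0.83). Stress and protein breakdown genes were atf4a (0.55), ctsd (0.76), pmaip1 (1.96), psmd8 (0.50) and hif1al (0.70). Liver, lipid and amino acid genes were hamp (3.84), fga (0.83), fgb (0.90), apoeb (0.84), lipg (1.23) and tat (2.8). Genes of hormone and vitamin turnover, matrix, ionocyte and retina were cyp24a1 (2.63), dio3b (1.97), rdh10b (1.14), adamts1 (1.44), ccn1 (1.19), thbs1a (1.2), rhcgb (1.02) and opn1mw2 (2.64). The lower effect in darkness was seen for apoda.2 (−0.95), comta (−0.78), dck (−1.57), lrrc4.2 (−0.84), rbfox1 (−0.38), sfrp1a (−0.98) and trim47 (−0.66).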

How the results depend on the processing

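The log2 fold changes of the 249 named genes called in darkness kept their sign in every alternative run. Of the 25 named genes that did not pass, 12 changed sign in at least 1 alternative, and none passed in any. Of the 249 calls 199 were kept in all alternatives, 35 were lost only when a fold of more than 1.2 was required, and 14 were lost with at least 1 library left out. The dark comparison called 4147 genes. It called 4180 and 4107 with a pseudocount of 1 and 0.01 FPKM, 3769 with no expression filter and 3985 with a mean of at least 2 FPKM. It called 4515 in limma-voom on recovered fragments, 3850 with only the groups compared and 4138 with robust moderation. A required fold of 1.2 left 1310 genes, 840 higher and 470 lower, by its own construction. With 1 library left out the calls numbered 3148 to 4407, the rises 1814 to 2369 and the falls 1334 to 2038.

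The difference between photoperiods, 239 genes with 202 higher and 37 lower in darkness, was less stable. Its calls numbered 127 to 491 with 1 library left out, 105 to 350 of them higher and 17 to 141 lower. A required fold of 1.2 left 50 genes, 49 higher and 1 lower. With equal total fragments 123 were higher and 116 lower. The lower calls numbered 86 with equal upper quartiles, 56 with a mean of at least 2 FPKM and 21 with only the groups compared. The cause of these shifts was not tested.

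The labels number the replicates 1 to 4 in each group. Deviations of the vehicle and exposed libraries with the same number correlated across genes at r = −0.026, 0.014, 0.0055 and 0.021, so no pairing by number was seen over all genes. Whether libraries of the same number share a factor that acts on part of the genes was not tested. With the replicate number as a block the dark comparison called 3623 genes, 2075 higher and 1548 lower, and the difference between photoperiods 155, 137 higher and 18 lower. The block lost 4 of the calls on named genes (cd74a, decr1, gck and hk2). It left 5 sarcomere, 2 myelin, 0 mitochondrially encoded, 0 ribosomal protein and 0 clock falls and 1 histone rise. In the other direction it gave 3 complement rises and 10 phototransduction falls. Depth limits genes with few fragments, whose folds depend on the pseudocount.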
